A study of Arabidopsis thaliana with 60 samples.

Results

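The ethylene signalling genes around EIN3 were followed in aerial tissue of Arabidopsis thaliana plants that differed in ploidy and in the number of pollen parents. The set was fixed by name and holds 10 genes of the 21450 in the tables. They were chosen for their place in the pathway, with earlier results of these data known. They are EIN3 (AT3G20770) and its close relative EIL1 (AT2G27050), EIN2 (AT5G03280), CTR1 (AT5G03730), the F-box genes EBF1 (AT2G25490) and EBF2 (AT5G25350), and the receptors ETR1 (AT1G66340), ERS1 (AT2G40940), ETR2 (AT3G23150) and ERS2 (AT1G04310). All 10 were listed in every plant. In build TAIR10.1 EIN3 lies at chr3:7260429-7263384 on the minus strand, in 2 exons. The question put to them was whether EBF2, ETR2 and ERS2, genes known to be induced through EIN3, followed the level of the EIN3 transcript itself.

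Ethylene is a gaseous hormone that acts in leaves on growth, defence and ageing. Its receptors hold the kinase CTR1 active in air, CTR1 keeps the membrane protein EIN2 off, and ethylene lifts this block so that EIN2 signals to the nucleus. There the transcription factors EIN3 and EIL1 accumulate because the F-box proteins EBF1 and EBF2 no longer target them for degradation, so EIN3 is controlled largely through its protein, which these data do not measure. EBF2, ETR2 and ERS2 transcripts rise after ethylene treatment and dampen the response, which makes them feedback genes.

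The 3 kinds of progeny compared had 5 plants each: triparental triploids (TT), from pollination with 2 different pollen donors, biparental triploids (BT), from a 4n pollen donor, and biparental diploids (BD), from a 2n donor. Every mother was an ein3-1 mutant, the 4n and 2n donors were pRPS5a::mGAL4-VP16/-; pUAS::BAR-YFP/- (a GAL4 activator and a herbicide-resistance reporter that it switches on), and all seedlings were selected with 25 mg/l glufosinate-ammonium before they went to soil at 9 days after sowing. Shoots were taken 18 days after sowing, from plants grown at 23 °C with 16 h of light. Because the mothers carried ein3-1 and the labels do not give the EIN3 genotype of the pollen donors, the EIN3 count of a plant joins transcripts of mutant and other alleles, and says nothing of how many were functional.

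The values are read counts per gene after division by a size factor for each plant (normalized counts). They place a gene relative to the other genes of the same plant. The study states that such values allow no conclusion on how many transcripts a cell holds in all. Of the 15 plants, 14 had between 19534646 and 30756482 reads on genes, and the depth of BT replicate 1 was not used as whole reads. The shoot markers RBCS1A, CA1, RCA and CAB1, which encode parts of the photosynthetic machinery, lay between 20567 and 684253 normalized counts, whereas the root markers CASP1 and WER did not exceed 19.98 and the other 3 root markers were not listed. In 4 plants a stretch of the genome stood above the other plants (medians of log2 deviations): chromosome 5 in BT replicate 5 (0.30), chromosome 4 in BT replicate 2 (0.34), and the end of chromosome 1 in BT replicate 3 (0.34), in BT replicate 5 (0.24) and in BD replicate 4 (0.50). EIN2, CTR1 and EBF2 lie on chromosome 5, and no member lies on chromosome 4 or in that part of chromosome 1. Plants also differed in the balance of long and short transcripts: the median deviation of 734 genes with transcripts of at least 4000 bases, less that of 1833 genes with transcripts of at most 1000 bases, ran between -0.65 in BD replicate 3 and 0.37 in TT replicate 3 on the log2 scale. In bulk tissue, fewer cells of a type and less RNA per cell cannot be told apart.

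The 3 feedback genes were looked at first in the genome, since they share a regulator. The 300 bases before their start sites are given here, 5′ to 3′ on the coding strand, from the RefSeq annotation of build TAIR10.1, with the letters ATGTA and their reverse complement TACAT in capitals. These letters are the core of the sequence that EIN3 is known to bind. EBF2 on chromosome 5 (chr5:8797350-8797649, minus strand) had 2 matches, starting 78 and 64 bases before the start site. ETR2 (chr3:8254259-8254558, plus strand) had 2, at 90 and 7 bases, and ERS2 (chr1:1157814-1158113, minus strand) had 1, at 39 bases.
EBF2: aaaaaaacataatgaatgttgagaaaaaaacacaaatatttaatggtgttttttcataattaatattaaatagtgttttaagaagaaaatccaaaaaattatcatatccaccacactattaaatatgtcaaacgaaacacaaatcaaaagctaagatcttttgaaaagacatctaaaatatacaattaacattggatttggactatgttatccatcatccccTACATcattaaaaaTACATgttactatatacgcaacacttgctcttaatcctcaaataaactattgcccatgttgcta
ETR2: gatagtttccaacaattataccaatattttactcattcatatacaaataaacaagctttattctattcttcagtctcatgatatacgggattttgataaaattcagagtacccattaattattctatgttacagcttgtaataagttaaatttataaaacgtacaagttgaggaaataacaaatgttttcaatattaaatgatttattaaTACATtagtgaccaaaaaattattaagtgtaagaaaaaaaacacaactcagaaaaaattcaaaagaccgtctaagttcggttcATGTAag
ERS2: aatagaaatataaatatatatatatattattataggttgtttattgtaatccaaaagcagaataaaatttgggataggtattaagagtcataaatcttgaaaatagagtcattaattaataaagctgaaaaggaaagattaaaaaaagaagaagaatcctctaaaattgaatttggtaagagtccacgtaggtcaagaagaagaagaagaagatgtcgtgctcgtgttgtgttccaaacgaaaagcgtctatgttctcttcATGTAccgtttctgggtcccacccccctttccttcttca
Over all 10 members, 7 windows held a match, with 3 each at EIN3 and EIN2, 2 at ETR1, 1 at ERS1 and 0 at EIL1, CTR1 and EBF1. Of 21282 protein-coding genes in the tables, 58.8% had a match in the same window. In 1000 bases EIN2 had 10 matches, EBF2 8, ETR1 7, and ERS1, ETR2 and ERS2 5 each. EIN3 had 4, EBF1 3, CTR1 2 and EIL1 1. The median over all genes was 3, and 93.6% of them had a match.

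EIN3 had the highest length-scaled level of the 10, at 27.0 ± 4.72 TPM (SD, n = 15 plants). EIL1, the second transcription factor, averaged 22.8 ± 6.20 TPM and EBF1 22.4 ± 5.83 TPM. EIN3 exceeded EIL1 in 13 of 15 plants, whereas EIL1 exceeded EBF1 in 8 of 15, so the order of EIL1 and EBF1 was not clear. ERS1 followed at 13.3 ± 2.77 TPM, ahead of EBF2 at 11.7 ± 3.79 TPM in 11 of 15 plants, while EBF2, CTR1 at 11.4 ± 2.78 TPM and EIN2 at 10.9 ± 3.0 TPM changed places from plant to plant. ETR1, the first ethylene receptor to be identified, averaged 7.72 ± 1.40 TPM. The receptors ERS2 and ETR2, which lack the canonical histidine kinase residues, were the rarest at 0.835 ± 0.296 and 0.566 ± 0.225 TPM, and ERS2 lay above ETR2 in every plant.

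**Figure D1:**
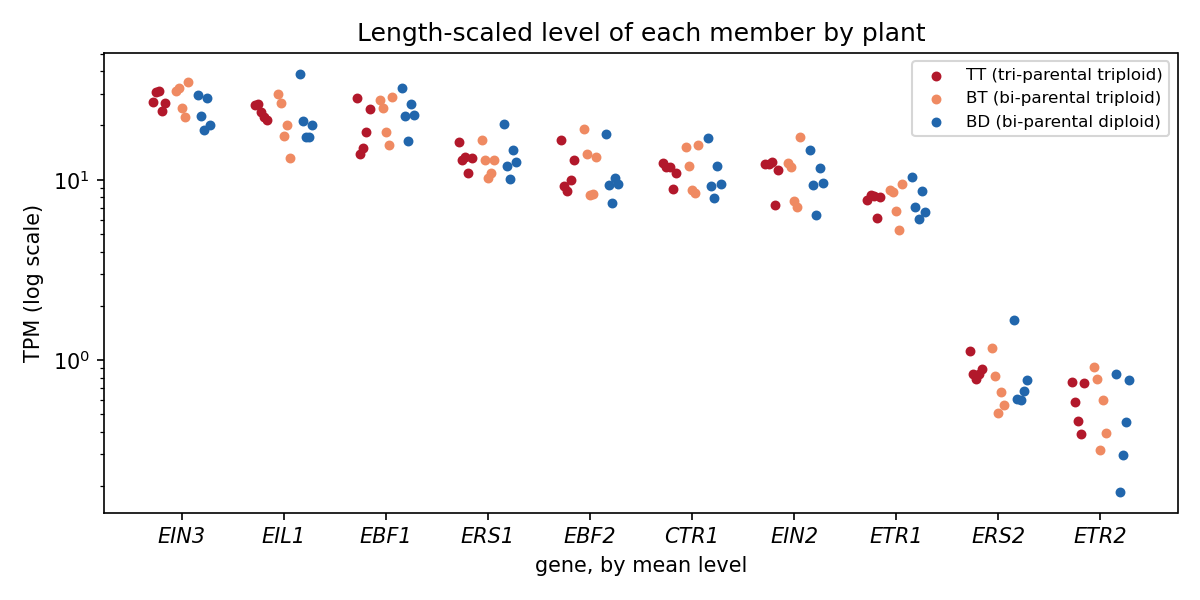
TPM (transcript share scaled to a fixed total, log axis) of each of the 10 genes, ordered by mean level, with 1 point for each plant, 5 plants each in TT, BT and BD. ERS2 and ETR2 lie below 2 TPM in every plant, and the other 8 genes above 5 TPM.

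These levels set how precisely each gene was measured. EIN3 was represented by 981 to 2072 reads in the 14 plants whose whole reads were used. Counting alone thus gives a coefficient of variation of 2.53%, against 10.1% between plants of a group. ETR2 rested on 10 to 58 reads and ERS2 on 33 to 126, with counting coefficients of 18.6% and 13.9%, against 39.1% and 31.0% between plants. Reads could be shared between genes in few places. EIN3 and EIL1 have no 75-base stretch in common, but 60 of 2374 windows of the EIN3 transcript differ from EIL1 at 2 or fewer positions. The next closest pair of members, ETR1 and ERS1, differ at 10 or more positions in every 75 bases. The library kit does not mark strand. EBF2 overlaps the opposite-strand genes AT5G25340 by 533 bases and AT5G03965 by 187 bases, neither of which is among the genes with counts here. ERS1 overlaps the opposite-strand gene AT2G40935 by 56 bases and ETR1 overlaps AT1G66345 by 38 bases, so reads there cannot be told apart.

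Relative to other genes, EIN3 stood higher in triploids than in diploids. The difference passed an exact test of this gene alone but not the correction over all genes. Triploids also hold more pollen-derived EIN3 copies per maternal ein3-1 copy than diploids. Ploidy and the share of the maternal allele therefore cannot be told apart in this difference. EIN3 had 1534, 1837, 1851, 1655 and 1512 normalized counts in TT plants, 1733, 1939, 1633, 1523 and 1906 in BT plants and 1560, 1430, 1348, 1592 and 1225 in BD plants. In all, 7 of 10 triploids lay above the highest diploid, and 4 of these were BT. The log2 fold change of triploids over BD was 0.26 (SE 0.09, 95% interval 0.07 to 0.45), with an exact two-sided permutation p of 0.00633 for this gene alone and a limma p of 0.00975, adjusted p = 1 over 21450 genes (Benjamini-Yekutieli). BT over BD gave 0.29 (SE 0.10, exact permutation p = 0.0238) and TT over BD 0.23 (SE 0.10, exact permutation p = 0.0476), while TT over BT gave -0.06 (SE 0.10, exact permutation p = 0.516). These 4 comparisons share plants. The smallest exact p for 5 against 5 plants is 0.00794.

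**Figure D2:**
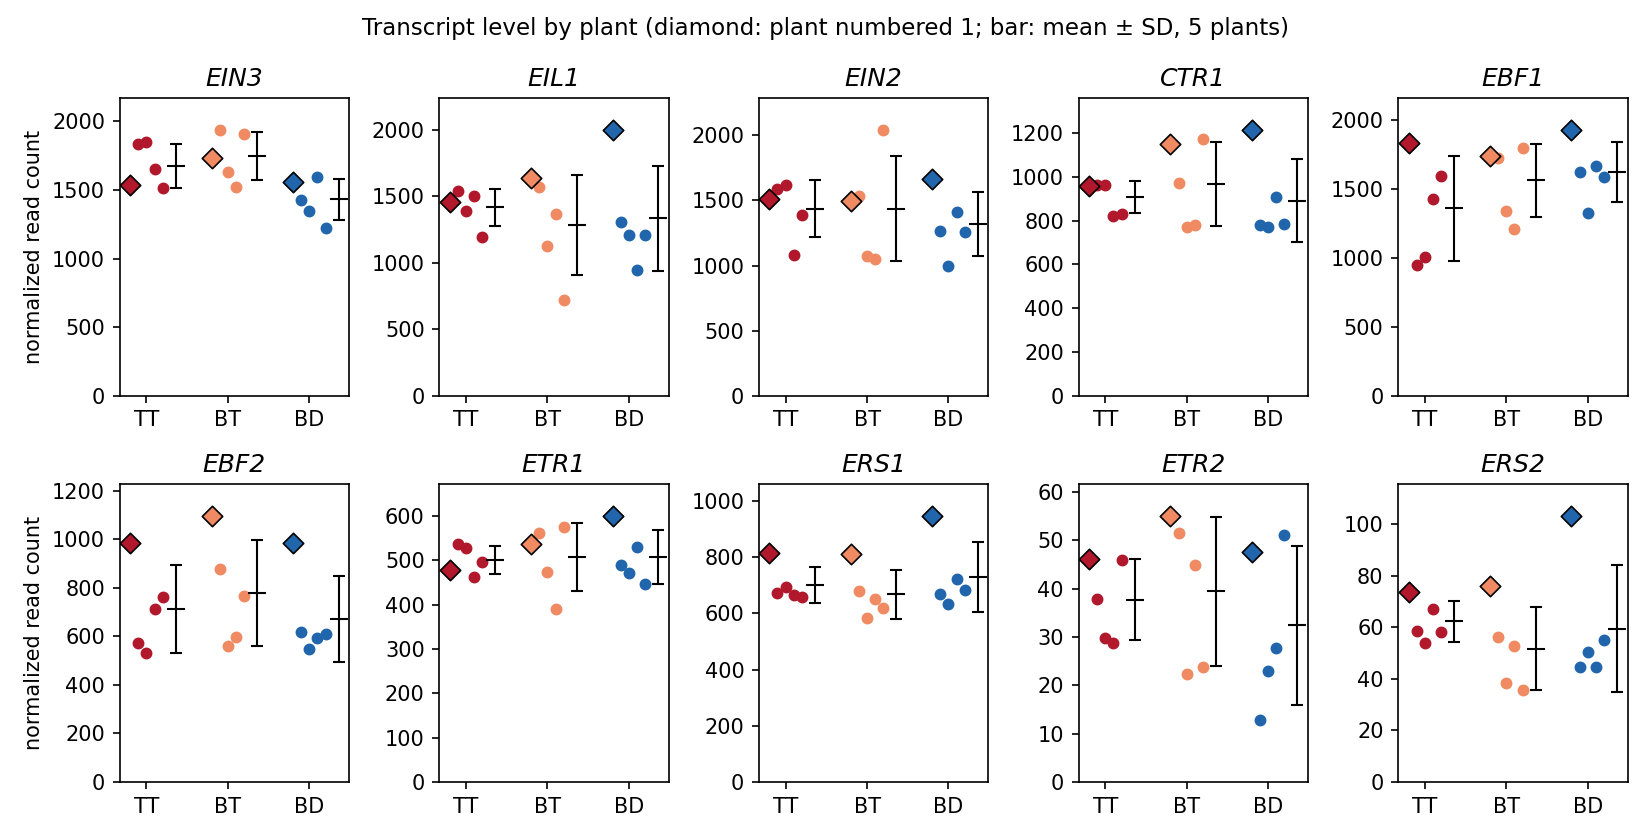
Normalized read count of each of the 10 genes by plant in TT, BT and BD, with the mean and SD of 5 plants beside each group and the plants numbered 1 as diamonds. Of the EIN3 values, 7 of 10 in triploids lie above the highest BD value of 1592, whereas EBF2, ERS1 and ERS2 are highest in the plant numbered 1 of each group.

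The size of the EIN3 difference was similar when the plants that stand apart were set aside, and its unadjusted p was not. Without the 4 plants with raised chromosome regions, triploids over BD gave 0.25 (SE 0.10, limma p = 0.0241, 11 plants), but BT over BD gave 0.23 with a limma p of 0.0990. With the long-against-short shift of each plant in the fit, triploids over BD gave 0.24 (SE 0.07, limma p = 0.00484), BT over BD 0.31 (SE 0.08, limma p = 0.00221) and TT over BD 0.17 (SE 0.09, limma p = 0.0663). On the TPM scale the differences were as large, at 0.26 for triploids over BD, with a limma p of 0.0698.

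For none of the other 9 members did a difference between groups pass a test. No member and no gene in the tables passed the adjusted threshold in BT over BD, TT over BT, TT over BD or triploids over BD, which is 0% of 21450 genes, by limma as well as by edgeR and DESeq2 on whole reads of 14 plants. At an unadjusted limma p under 0.05, BT over BD held 371 genes (1.73%, of which 0.774% of all genes were higher and 0.956% lower), TT over BT 2018 (9.41%, with 4.38% higher and 5.03% lower), TT over BD 514 (2.4%, with 0.984% higher and 1.41% lower) and triploids over BD 278 (1.3%, with 0.587% higher and 0.709% lower). By edgeR these counts were 423, 2461, 584 and 319. EIN3 was the 1 member under that threshold in BT over BD, in TT over BD and in triploids over BD, higher in each, and 0 members were under it in TT over BT. No member had groups that did not overlap in any comparison. Over all genes, 0.0746% lay with all BT above all BD and 0.112% with all BT lower, 0.825% with all TT above all BT and 0.797% lower, 0.247% with all TT above all BD and 0.345% lower, and 0.00932% with all triploids above all BD and 0.0233% lower. The median log2 fold change of the 10 was 0.05 in BT over BD, 0.00 in TT over BT and 0.11 in TT over BD, where the median of all genes was 0.00 in each.

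**Figure D3:**
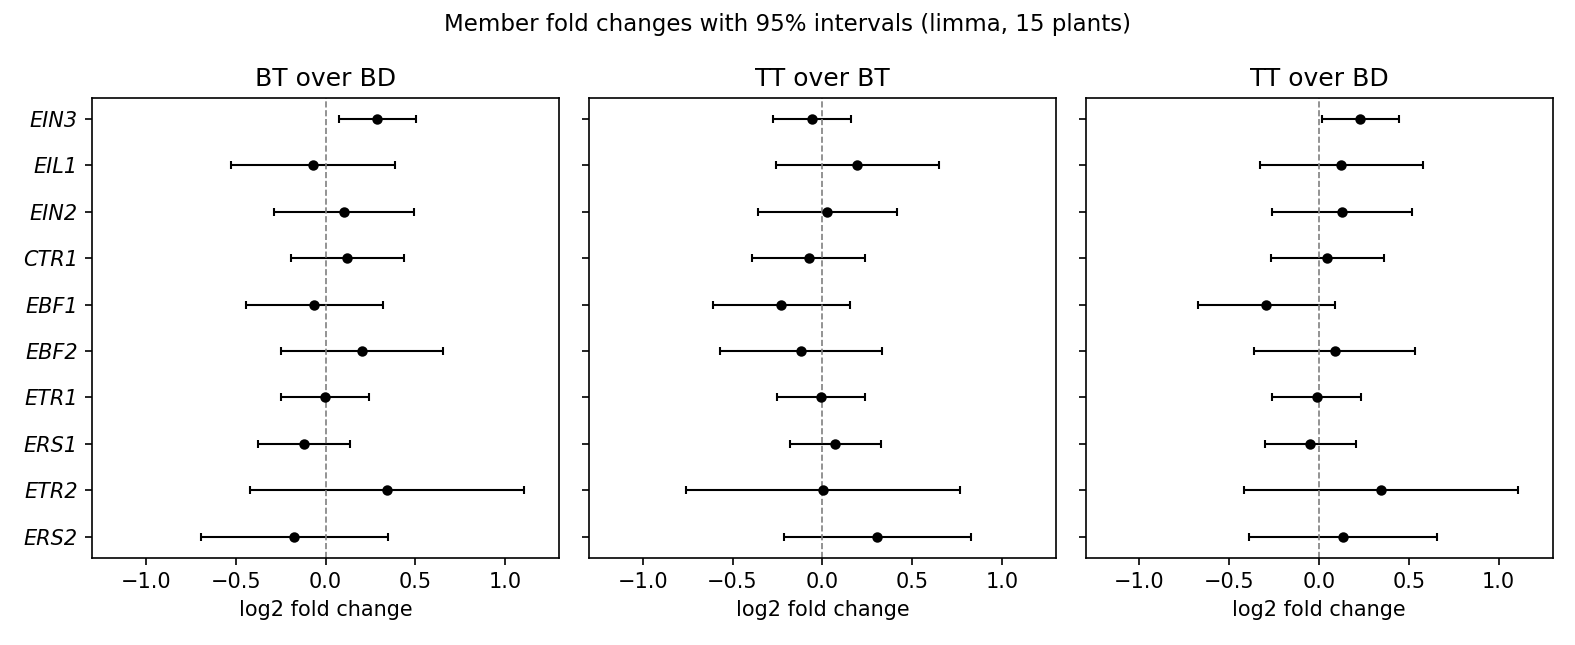
Log2 fold change of each of the 10 genes in BT over BD, TT over BT and TT over BD, with 95% intervals from limma on all 15 plants. The EIN3 intervals in BT over BD and TT over BD lie above 0, at 0.07 to 0.50 and 0.01 to 0.45, and every other interval spans 0.

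The intervals bound how far the relative levels of the feedback genes could have moved with ploidy. EBF2 had 987, 572, 530, 715 and 763 normalized counts in TT plants, 1096, 878, 559, 596 and 765 in BT plants and 986, 620, 550, 591 and 608 in BD plants, and all groups overlapped. Triploids over BD gave a log2 fold change of 0.14 for EBF2, with an interval of -0.25 to 0.54. ETR2 had 46.2, 37.9, 29.8, 28.8 and 45.9 normalized counts in TT plants, 55.0, 51.5, 22.4, 44.9 and 23.8 in BT plants and 47.5, 12.7, 23.0, 27.7 and 51.2 in BD plants. The fold change of ETR2 was 0.34, with an interval of -0.32 to 1.00. ERS2 had 73.8, 58.5, 53.8, 67.2 and 58.3 normalized counts in TT plants, 76.1, 56.2, 38.2, 52.7 and 35.7 in BT plants and 103.2, 44.5, 50.5, 44.5 and 55.0 in BD plants. Its fold change was -0.02, with an interval of -0.47 to 0.43.

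Upstream of EIN3 no group difference passed a test either. CTR1, the kinase that blocks the pathway in air, averaged 908 ± 74.3 normalized counts in TT, 969 ± 193 in BT and 891 ± 190 in BD (SD, n = 5 each). EIN2, the membrane protein that carries the signal onward, averaged 1436 ± 218 in TT, 1438 ± 407 in BT and 1318 ± 244 in BD. ETR1 averaged 501 ± 32.1, 508 ± 75.8 and 507 ± 60.1 in TT, BT and BD, and its triploid-over-diploid interval was among the narrowest, at -0.22 to 0.20. ERS1, the second receptor of the subfamily of ETR1, averaged 700 ± 64.6 in TT, 669 ± 87.3 in BT and 730 ± 125 in BD. EIL1 ranged between 1196 and 1543 in TT, between 716 and 1638 in BT and between 949 and 2001 in BD. EBF1 was lowest in TT, at 1362 ± 381 against 1564 ± 266 in BT and 1627 ± 216 in BD, but the interval of TT over BD ran between -0.67 and 0.09.

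No relation of the feedback genes to EIN3 from plant to plant was detected. Over the 15 plants, log2 EBF2 and log2 EIN3 had a Pearson's r of 0.22 (permutation p = 0.433) and a Spearman's rho of 0.13 (permutation p = 0.639). For ETR2 these were r = 0.07 (permutation p = 0.808) and rho = 0.12 (permutation p = 0.677), and for ERS2 r = -0.06 (permutation p = 0.823) and rho = 0.06 (permutation p = 0.843). The plants farthest from the median EIN3 level were BD replicate 5 and BT replicate 2, and without them r was 0.05 for EBF2, 0.18 for ETR2 and -0.10 for ERS2. As deviations from group means r was 0.09, -0.18 and -0.00 for EBF2, ETR2 and ERS2. These were 3 of 9 relations with EIN3 that were computed. For scale, 28.9% of all genes had an r with EIN3 at or above that of EBF2, 43.8% at or above that of ETR2 and 57.6% at or above that of ERS2.

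A fit across all genes with the EIN3 level as a covariate beside the group gave none either. The log2 change per log2 unit of EIN3 was 0.22 (SE 0.68) for EBF2, -0.74 (SE 1.13) for ETR2 and -0.01 (SE 0.78) for ERS2, each with an adjusted limma p of 1. EIN3 varied by a coefficient of variation of 10.1% within groups, and a slope of 1 lay within 2 standard errors of the estimate for each of the 3. No gene of 21449 passed the adjusted threshold (0%), while 18.3% had an unadjusted limma p under 0.05. The log2 ratio of each feedback gene to EIN3 within a plant was compared between groups as well, and the 9 differences lay between -0.47 and 0.37, with exact permutation p-values between 0.167 and 0.889.

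**Figure D4:**
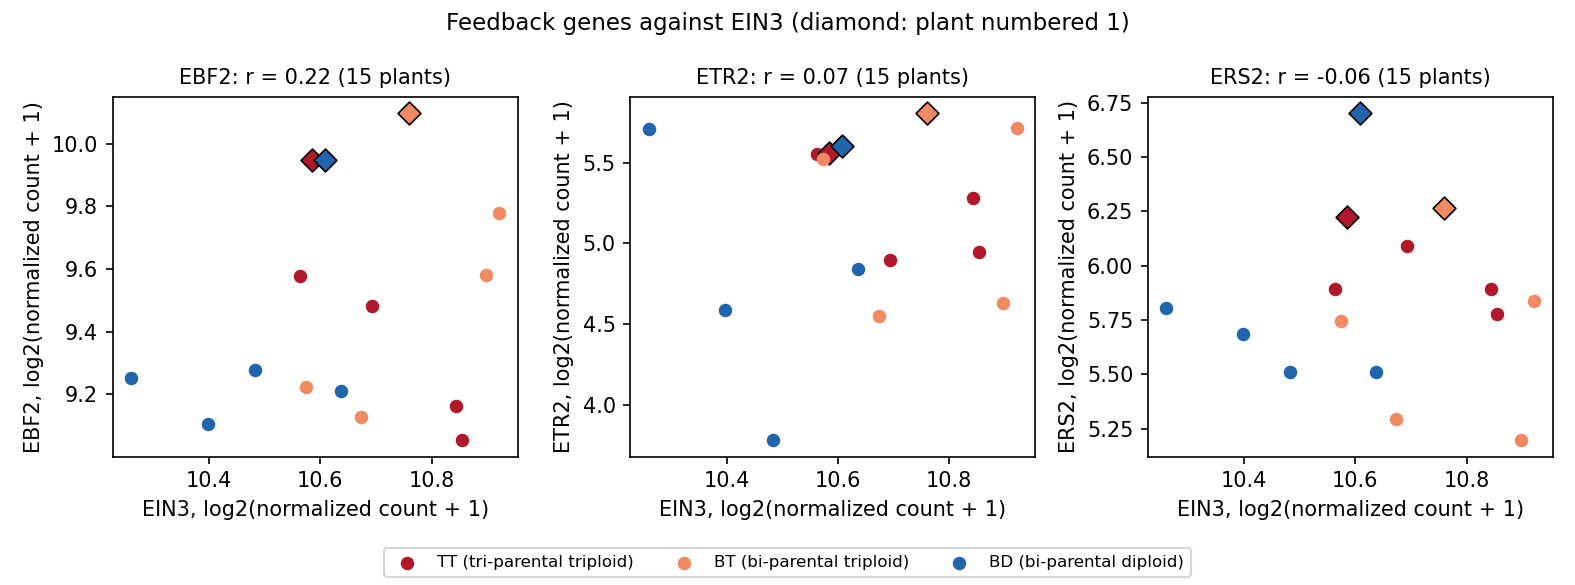
EBF2, ETR2 and ERS2 against EIN3, each as log2(normalized count + 1), with 1 point for each of 15 plants and the plants numbered 1 as diamonds. The points show no line, with r of 0.22, 0.07 and -0.06, and the diamonds sit at the top for EBF2 and ERS2 at middling EIN3.

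The relation of EBF2 to EIN3 did depend on the scale. In TPM, r was 0.58 (permutation p = 0.0235). Each plant's median TPM deviation, taken over genes averaging 50 or more normalized counts, ran between -0.23 in BD replicate 3 and 0.19 in BD replicate 1 on the log2 scale, where normalized counts gave 0 in every plant. With this shift taken out of the TPM values, r was 0.28 (permutation p = 0.320). Against the sum of EIN3 and EIL1 in TPM, r was 0.75 for EBF2 (permutation p = 0.00167), 0.60 for ETR2 (permutation p = 0.0183) and 0.77 for ERS2 (permutation p = 0.00065). When their normalized counts were summed instead, r was 0.49 for EBF2 (permutation p = 0.0634), 0.42 for ETR2 (permutation p = 0.115) and 0.66 for ERS2 (permutation p = 0.00683).

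EIL1, which shares its DNA-binding domain type and targets with EIN3, was then taken alone. ERS2 and EIL1 had r = 0.85 (permutation p = 0.0001) and rho = 0.82 (permutation p = 0.00044), with r = 0.72 without BD replicate 1 and BT replicate 5, the 2 plants farthest in ERS2. In single groups of 5 plants r was 0.35 in TT, 0.87 in BT and 0.90 in BD. BD replicate 1 had the highest ERS2 and EIL1 of all plants, at 103.2 and 2001 normalized counts, and BT replicate 5 the lowest of both, at 35.7 and 716. The slope of ERS2 on EIL1 was 0.90 (SE 0.20, unadjusted limma p = 0.000522), and the adjusted p was 0.714. Of all genes, 20.3% had an unadjusted p under 0.05 for a slope on EIL1. ETR2 and EBF2 were less close to EIL1, at r = 0.47 (permutation p = 0.0751) and r = 0.39 (permutation p = 0.146). Between ERS2 and ETR2 themselves r was 0.65 (permutation p = 0.00885), and between ERS2 and ERS1 it was 0.85 (permutation p = 9e-05). These are among 45 pairs computed over the 10 members, and none is given an adjustment over the pairs.

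Several of these relations rested on the plants numbered 1. TT, BT and BD replicate 1 were each the highest of their group for EBF2, ERS1 and ERS2. For EBF2 the 3 plants had at least 986 normalized counts, against at most 878 in the other 12, for ERS1 at least 812 against at most 721, and for ERS2 at least 73.8 against at most 67.2. The replicate number is not said to mark a shared batch, and the part of a batch was not tested. EIN3 was not raised in them, at ranks 10, 5 and 9 of the 15 plants in TT, BT and BD. Without these 3 plants r between EBF2 and ERS1 was 0.01 instead of 0.69, and r between EBF2 and ERS2 was 0.14 instead of 0.65. ERS2 and ERS1 had r = 0.50 without them (permutation p = 0.0982) instead of 0.85, whereas ERS2 and EIL1 kept an r of 0.79 and EBF2 and EBF1 an r of 0.66. The slope of ERS2 on EIL1 without them was 0.51 (SE 0.24, unadjusted limma p = 0.0554).

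**Figure D5:**
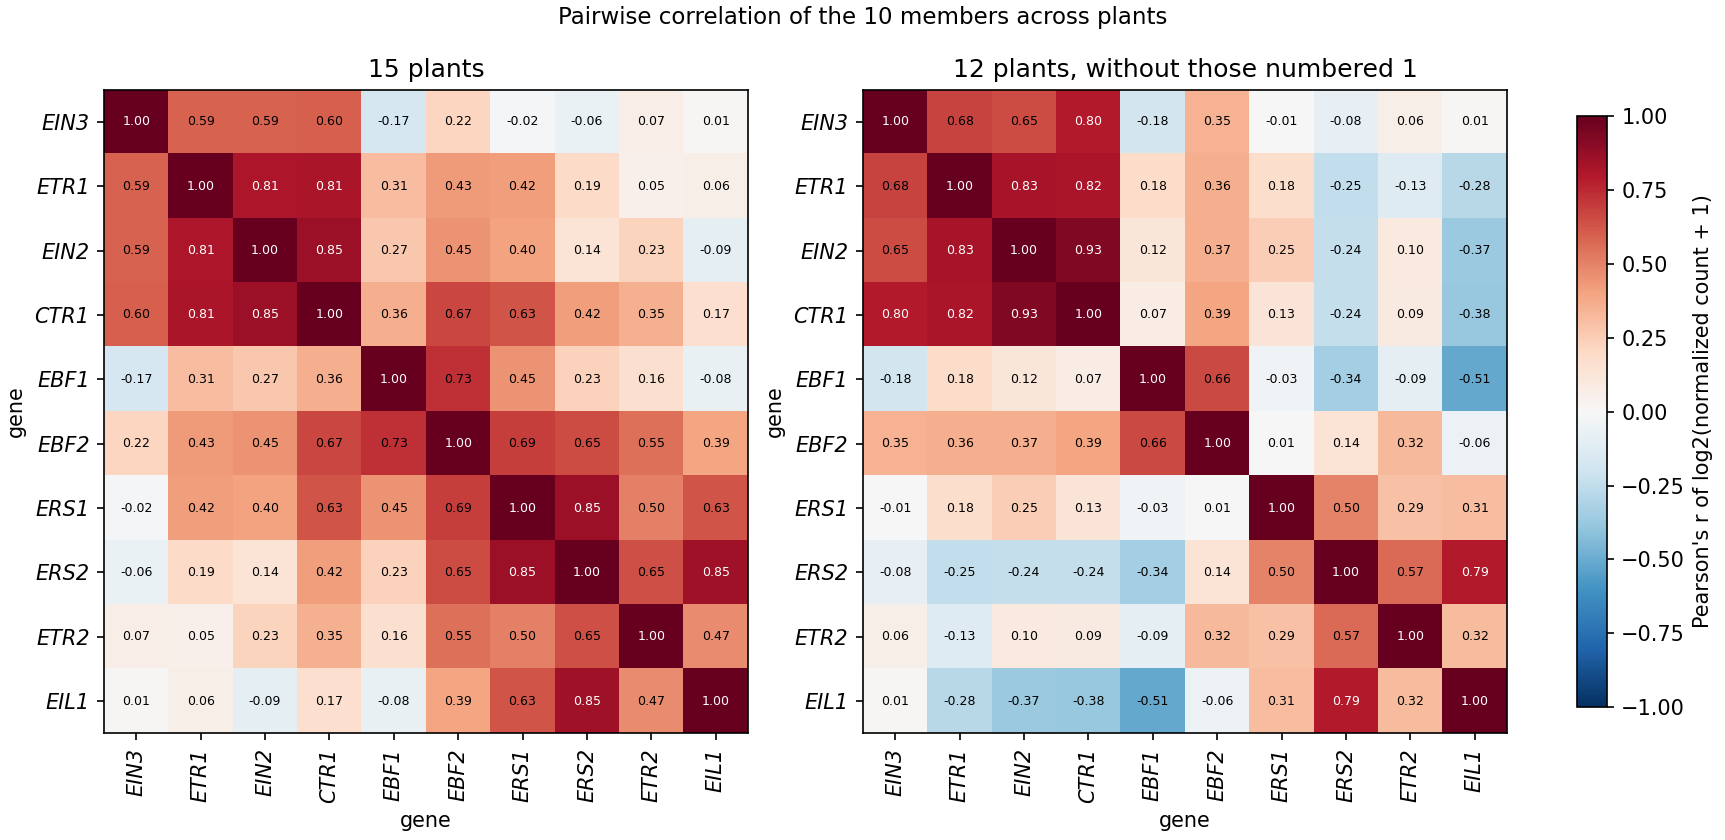
Pearson's r of log2(normalized count + 1) for each pair of the 10 genes over 15 plants (left) and over the 12 plants not numbered 1 (right). EIN3 has r near 0.6 with ETR1, EIN2 and CTR1 and near 0 with ERS1, ERS2, ETR2 and EIL1, and the block of EBF2 with ERS1 and ERS2 fades on the right.

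EIN3 had its highest r among the members with ETR1, EIN2 and CTR1, which act before it in the pathway. Over 15 plants r with EIN3 was 0.59 for ETR1 (permutation p = 0.0198), 0.59 for EIN2 (permutation p = 0.0205) and 0.60 for CTR1 (permutation p = 0.0191), with rho of 0.63, 0.64 and 0.66. Within groups r was 0.84, 0.66 and 0.65 for ETR1, EIN2 and CTR1. Without the plants with raised regions r was 0.47, 0.54 and 0.57 in this order (permutation p = 0.138, 0.0894 and 0.0680). Without the plants farthest from the median EIN3 level r was 0.48, 0.66 and 0.59 (permutation p = 0.0937, 0.0159 and 0.0372). Without the plants numbered 1 r was 0.68, 0.65 and 0.80. Of all genes, 2.17%, 2.15% and 2.03% had an r with EIN3 at or above that of ETR1, EIN2 and CTR1. The slope on EIN3 was 0.98 (SE 0.26) for ETR1, 1.39 (SE 0.46) for EIN2 and 1.07 (SE 0.38) for CTR1, all with adjusted limma p = 1. EIN2, CTR1 and ETR1 were also close to each other, at r = 0.85 for EIN2 with CTR1, 0.81 for EIN2 with ETR1 and 0.81 for CTR1 with ETR1. Leaving out the plants numbered 1 gave 0.93, 0.83 and 0.82 for these pairs.

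The balance of long and short transcripts moved with these 3 genes. EIN2, whose transcript is the longest of the members at 4851 bases, had r = 0.83 (permutation p = 0.00016) and rho = 0.83 with the long-against-short shift of the 15 plants. Its 4 lowest values, 994 in BD replicate 3, 1050 in BT replicate 4, 1072 in BT replicate 3 and 1079 in TT replicate 4, came from the 4 plants with the lowest shift. ETR1 had r = 0.76 with the shift (permutation p = 0.00076), CTR1 r = 0.67 (permutation p = 0.00703) and EIN3 r = 0.47 (permutation p = 0.0768). With the shift in the fit, the slope on EIN3 was 0.60 (SE 0.28) for ETR1, 0.30 (SE 0.42) for EIN2 and 0.41 (SE 0.42) for CTR1. The total of all normalized counts of a plant moved with these genes too, the other way, at r = -0.77 for CTR1 (permutation p = 0.00112), -0.71 for EIN2 (permutation p = 0.00399) and -0.54 for ETR1 (permutation p = 0.0377), with r of -0.61, -0.56 and -0.29 without the 2 plants farthest from the median total. For EBF2 this r was -0.66, for ERS1 -0.60, for EBF1 -0.60 and for EIN3 -0.17. The part of either measure in the relations between genes was not tested beyond the fits with the length shift. The highest EIN2 value, 2042 in BT replicate 5, came from the plant with raised chromosome 5.

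Of the other members' slope fits, run over all genes in the same way, the share under an unadjusted limma p of 0.05 was 29.8% for EIN2, 24.6% for CTR1, 23.4% for ETR1, 14.8% for ERS1, 13.3% for ETR2, 10.7% for EBF2, 10.3% for ERS2 and 6.18% for EBF1. With all 15 plants, EIN2 was the only member whose level was followed by more than 1 gene past the adjusted threshold (1 gene for ETR1, 0.00466%, and none for the others). Of 21449 genes 455 (2.12%) had a slope on EIN2 with an adjusted limma p under 0.05, of which 268 were positive. Positive genes had a median transcript length of 4084 bases and 51.9% lay on chromosome 5, whereas negative genes had 1055 bases and 9.09% on chromosome 5, and the remaining genes 1690 bases and 23.1%. Without BT replicate 5, in which chromosome 5 was raised, 771 genes passed, and the share on chromosome 5 among the 452 positive ones was 20.4%, with a median length of 4209 bases. Without the 4 plants with raised regions 555 passed, with 21.6% of the positive ones on chromosome 5. Without the plants numbered 1 no gene passed for EIN2 (5106 at an unadjusted limma p under 0.05), while 114 then passed for EIL1, of which 85 were positive. With the long-against-short shift in the fit 1 gene passed for EIN2. RAN1, a copper transporter on chromosome 5 that supplies the receptors with the copper they need to bind ethylene, was among the 455, with a slope of 1.07 (SE 0.18, adjusted p = 0.0281). RAN1 was no longer past the threshold without BT replicate 5 (adjusted p = 0.132), where it had its highest value of 1436, nor without the 4 raised plants (0.0651), without the plants numbered 1 (0.225) or with the shift in the fit (0.0616). ETP1 and ETP2, F-box genes whose products target EIN2 for degradation, had slopes on EIN2 of -0.59 (SE 0.13) and -0.66 (SE 0.14), both with an adjusted p of 0.095. The 4 plants with the lowest long-against-short shift also had the lowest EIN2. In BD replicate 3, BT replicates 3 and 4 and TT replicate 4, ETP1 had 1390.5, 1284, 1259 and 1260 normalized counts. ETP2 had 175.6, 181.9, 181.5 and 155.7 there. The highest values in other plants were 1280 for ETP1 (BD replicate 2) and 175 for ETP2 (BD replicate 5).

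EBF1 showed a relation to EIN3 that differed in direction between the groups without passing correction. The 2 TT plants with the highest EIN3, replicates 2 and 3, had the lowest EBF1 of all 15 plants, at 946 and 1006 normalized counts, and the lowest EBF2 of their group, at 572 and 530. In BT the plants with the most EIN3, replicates 2 and 5, had 1725 and 1800 for EBF1. The slope of EBF1 on EIN3 was -2.91 in TT, 1.59 in BT and 0.72 in BD, and a test of the difference between the 3 slopes gave an unadjusted limma p of 0.000216 and an adjusted p of 1, with 2.03% of genes under an unadjusted p of 0.05. For EBF2 the slopes were -2.33, 1.59 and 1.00 in TT, BT and BD, with an unadjusted limma p of 0.0345 and an adjusted p of 1. Each slope rests on 5 plants.

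The rest of the pathway was read from lists fixed by name. Of 42 genes in these lists 39 were in the tables. None of the 39, 3 for receptor function, 4 for EIN2 and EIN3 regulation, 16 for ethylene synthesis and 16 for the ethylene response, passed the adjusted threshold in a comparison, and 4 had an unadjusted limma p under 0.05 in one of them. These were 1 of 39 in BT over BD and 1 in TT over BT, where 1.73% and 9.41% of all genes were under it, 2 in TT over BD (2.4%) and 0 in triploids over BD (1.3%). ACO4, an ACC oxidase that makes the last step to ethylene, had 3300, 4201, 4220, 5009 and 3159 normalized counts in TT plants and 5828, 4872, 7649, 4994 and 6939 in BT plants, a log2 fold change of -0.60 (SE 0.22, adjusted limma p = 1). TT and BT overlapped in ACO4 only through TT replicate 4, which lay above 2 BT plants. ACS5, an ACC synthase, gave 1.56 (SE 0.70) in TT over BD at 3.20 to 16.3 normalized counts in TT against 0.768 to 8.74 in BD. ERF1, a transcription factor gene that EIN3 activates directly, gave -1.39 (SE 0.51) in TT over BD, at 0.956 to 6.22 normalized counts in TT against 4.39 to 23.8 in BD. HLS1, which shapes the apical hook, gave 0.61 (SE 0.28) in BT over BD. ACS5 and ERF1 rest on few reads.

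As a group the 16 response genes had a median log2 fold change of -0.62 in TT over BT and -0.41 in TT over BD, where all genes had 0.00 in both, and 0.20 in BT over BD. Of the 16, 0 were under an unadjusted limma p of 0.05 in TT over BT, against 9.41% of all genes, 1 in BT over BD (HLS1, against 1.73%) and 1 in TT over BD (ERF1, against 2.4%). Single plants stood high in these genes. PR4, which encodes a hevein-like defence protein, had 1155, 1085, 700, 650 and 596 normalized counts in TT plants, 2607, 937, 1688, 890 and 1986 in BT plants and 2616, 352, 718, 3943 and 749 in BD plants, with the highest values in BD replicates 4 and 1 and BT replicates 1, 5 and 3. BD replicate 4, BT replicate 3 and BT replicate 5 are among the 4 plants with raised regions. Without those 4 the list had medians of -0.59 in TT over BT, -0.26 in TT over BD and 0.45 in BT over BD, and without the plants numbered 1 these were -0.59, -0.23 and 0.30. Leaving out BD replicate 4 alone gave -0.26 in TT over BD, and leaving out BT replicate 1 alone gave 0.09 in BT over BD. TT replicate 5 had the lowest value of all plants for ERF5, EDF1, EDF2 and EDF4, at 43.0, 457, 124 and 578 normalized counts. The lowest values in the other TT plants were 88.5, 1269, 524 and 1432. HLS1 and FLS2 were not low in TT replicate 5, at 61.2 and 416. ERF5 and EDF4 lay next to the list median in TT over BT, at -0.63 and -0.60. The list medians were not computed without single TT plants, so how far they rest on TT replicate 5 was not tested. The 16 synthesis genes had medians of -0.02, 0.01 and 0.09 in TT over BT, TT over BD and BT over BD. The 3 receptor genes and the 4 regulation genes had medians within 0.05 of 0 in each of these comparisons.

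The genes whose pattern over plants was most like EIN3 or a feedback gene were in none of the pathway lists. Of 16251 other genes averaging 50 or more normalized counts, the 5 with the highest r with EIN3 over 15 plants were AT1G12810 (r = 0.89), BET10 (0.83), AT5G35370 (0.80), BAK1 (0.80), which encodes a co-receptor kinase of brassinosteroid and immune signalling, and JAL34 (0.80), a jacalin-related lectin gene. EBF2 was matched most closely by AT4G35785 (r = 0.88), AT1G13050 (0.86), AT3G48440 (0.85), AT5G17780 (0.84) and AT1G17930 (0.82). For ETR2 the first 5 were AT5G10350 (r = 0.87), AT4G00040 (0.86), AT5G18030 (0.85), AT2G07698 (0.85) and AT1G78170 (0.84). For ERS2 they were AT1G48780 (r = 0.88), DUF6 (0.86), THY-1 (0.86), which makes thymidylate for DNA synthesis, AT5G45780 (0.86) and AT2G42640 (0.86). The 20 genes are all different. They are the highest of 16251 values for EIN3, EBF2 and ERS2 and of 16252 for ETR2, which lies under the count limit itself, and are given as a description.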

How the data were processed

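RNA of aerial tissue from 15 plants was sequenced as 75 bp single reads from an unstranded polyA library, with 4 technical runs per plant (60 samples). Per the labels and the methods of the study, the authors trimmed reads with Trimmomatic 0.38, aligned them with STAR 2.6.0c to TAIR10 (up to 50 places per read, 2 mismatches) and counted with salmon 0.11.3. They deposited read counts divided by DESeq2 1.22 size factors (a normalized signal per gene, in which whole reads were recovered for 14 plants), regularised log2 values and TPM, each with the technical runs combined in 1 column per plant. Reads that match both EIN3 and EIL1 could be split between them.

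Normalized counts were tested as log2(value + 1) with limma 3.58.1 in R 4.3.3 on all 15 plants, without a filter on low values, adjusted by Benjamini-Yekutieli over all genes at 0.05. limma was chosen because the deposited values are normalized and not raw counts. edgeR 4.0.16 and DESeq2 1.42.0 were run as alternatives on whole reads of 14 plants, and each called 0 genes. In these plants 100% of deposited values came out whole to within 0.001 reads. BT replicate 1 reached 100% as well, but an automatic check could not accept the value that stands for 1 read in it. It was therefore left out of these fits. Single values were compared by exact two-sided permutation and correlations by 100000 two-sided permutations. Named were the 10 members, pathway genes with an unadjusted limma p under 0.05, and the 5 genes with the highest r with EIN3, EBF2, ETR2 and ERS2. The members, lists and alternatives were chosen with earlier results of these data known. Chosen after seeing the data were the slope fits on members other than EIN3, a slope for each group, the long-against-short shift as a covariate, the sum of EIN3 and EIL1 normalized counts, TPM less its plant shift, the response list without single plants, and the slope fits without the plants numbered 1, with raised regions or BT replicate 5. Positions and sequences come from RefSeq TAIR10.1. The fits were run on simulated data with a spread set by hand, as a check of the code. For the slopes that spread was smaller than the spread of the feedback genes here. The simulation therefore does not show which slopes these data could detect.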

Additional observations from a re-analysis of the deposited data

Results flagged for a closer look

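In 4 of 30 groups of 5 plants, 1 plant lay far outside the other 4, where chance gives about 1.5. EBF2 in BD replicate 1 had 986 normalized counts, against 620 in the next plant of the group. ERS1 had 813 in TT replicate 1, against 693, and 946 in BD replicate 1, against 721. ERS2 had 103.2 in BD replicate 1, against 55.0. The gap to the next plant, as a share of the range of the group, was 0.84, 0.77, 0.72 and 0.82 in this order. All 4 values came from plants numbered 1.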

How the results depend on the processing

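The count of genes past the adjusted threshold was 0 in all 4 comparisons under every alternative run, including edgeR and DESeq2. Of 1230 alternative values for the 40 member fold changes, 0 moved by more than 1 SD between plants and 87 took the other sign. For EIN3 the triploid-over-diploid value ran between 0.16 and 0.32 over 30 alternatives, 29 of them with an unadjusted limma p under 0.05. BT over BD ran between 0.17 and 0.34 (29 of 31), and TT over BD between 0.14 and 0.33 (20 of 31). TT over BT ran between -0.14 and 0.04, with 0 of 31 under 0.05.

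The relation of EBF2 to EIN3 was r = 0.58 in TPM and 0.75 against the TPM sum of EIN3 and EIL1. That sum gave 0.60 for ETR2 and 0.77 for ERS2, and the sum of normalized counts 0.66 for ERS2. ETR2 had r = -0.18 on deviations from group means and -0.14 with the replicate block. ERS2 had r = 0.32 in TPM, a rho of 0.057, and r = 0.28 without the 4 plants with raised regions. Slopes on EIN3 changed sign for EBF2 with the long-against-short shift (-1.07), for ETR2 with no group in the fit (0.21), and for ERS2 in rlog values (0.033) and without the 4 raised plants (0.84), all with adjusted p = 1. Apart from the TPM shift given above, the cause was not tested.

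Leaving out 1 plant at a time, r ran between 0.13 and 0.35 for EBF2, -0.12 and 0.29 for ETR2, and -0.13 and 0.12 for ERS2. Log2 ratio differences to EIN3 ran between -0.22 and 0.030 (EBF2, BT over BD), -0.22 and 0.076 (EBF2, TT over BT), -0.30 and -0.0097 (EBF2, TT over BD), -0.23 and 0.33 (ETR2, BT over BD), -0.13 and 0.21 (ETR2, TT over BT), -0.17 and 0.39 (ETR2, TT over BD), -0.62 and -0.28 (ERS2, BT over BD), -0.22 and 0.090 (ERS2, TT over BD), and 0.22 and 0.52 (ERS2, TT over BT). The last value, without BT replicate 1, had an exact permutation p of 0.0476. Same-numbered plants of different groups had correlations of their deviations between -0.67 and 0.45, where pairing was taken to need every correlation over 0.1. Those numbered 1 had 0.37 (TT and BT), 0.27 (TT and BD) and 0.45 (BT and BD). The replicate block moved the unadjusted counts to 372 in BT over BD, 2035 in TT over BT, 629 in TT over BD and 296 in triploids over BD, and changed no adjusted call, but EIN3 in TT over BD had an unadjusted limma p of 0.0565 with it. At 10 to 58 reads, ETR2 allows no finer statement than its interval.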
